A study of Bos taurus with 27 samples.

Results

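The genes described here are the mucins and goblet cell secretory genes of the calf colon. The list held 9 genes, MUC13, MUC1, MUC2, AGR2, TFF3, ZG16, CLCA1, FCGBP and SPDEF, and a gene was kept where its symbol was paired with a single Ensembl identifier of the count table. That left 5 of 24616 genes in the table: MUC13 (ENSBTAG00000010382), MUC1 (ENSBTAG00000017104), AGR2 (ENSBTAG00000024406), TFF3 (ENSBTAG00000021276) and CLCA1 (ENSBTAG00000008161). MUC2, ZG16, FCGBP and SPDEF were not analysed here.

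The colon is covered by mucus that keeps bacteria away from the epithelium. Goblet cells make the gel-forming mucin, fold it in the endoplasmic reticulum, pack it into granules and secrete it with small trefoil peptides and mucus-processing proteins. Transmembrane mucins form a second, cell-bound layer on the apical surface of epithelial cells. MUC13 and MUC1 are transmembrane mucins. AGR2 is a protein disulfide isomerase of the endoplasmic reticulum that is needed for mucin folding, TFF3 is the trefoil peptide of intestinal goblet cells, and CLCA1 is a protease that goblet cells secrete into the mucus.

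RNA was sequenced from the colon of 27 male Holstein calves, all euthanized at 51 h of age. Calves received their 1st meal of pooled colostrum by tube. In TRT0 the meal came right after birth (0 h), in TRT6 it came 6 h later and in TRT12 12 h later, with 9 calves in each treatment. All were moved to milk replacer afterwards, so treatments also differed in when that diet began. Within each treatment, 4 calves were born to primiparous heifers (H) and 5 to multiparous cows (C), which made 6 groups, written for example TRT12_C. The tissue was a full piece of colon rather than isolated epithelium. A lower value in such tissue cannot be told apart between fewer cells of a type and less RNA per cell.

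Libraries held 1163791 to 4202593 counts (median 2215402) and were spread over 3 sequencing lanes of 11, 11 and 5 calves. By the run names, the 5 calves of lane 3 had a different run number from all other calves. Lane, as used here, therefore also holds that difference in run. TRT0_C had no calf in lane 1, and TRT0_H, TRT6_H and TRT12_C had none in lane 3. Colon epithelium was present in every library: the summed level of 9 epithelial markers, among them CDH1, VIL1 and CLDN7, ranged from 2523 to 4460 CPM (a gene's share of its library's total count times 1e6). Muscle was part of the tissue as well, with 7 smooth muscle markers summing to 6880 to 14144 CPM.

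All 5 genes were expressed in all 27 calves and passed the filter on low counts. CPM is not corrected for gene length, so levels are compared between calves and not between genes. MUC13 averaged 753 ± 209 CPM (SD, n = 27), from 306 to 1114. MUC1 averaged 177 ± 51.1 CPM, from 78.4 to 284. AGR2 averaged 525 ± 224 CPM, from 248 to 1130. The lowest and highest calf thus differed several fold for each of the 3 genes. TFF3 averaged 68.1 ± 19.6 CPM, from 33.2 to 113, and rested on the fewest reads, 56 to 260 a calf. CLCA1 averaged 360 ± 124 CPM, from 107 to 592.

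These genes varied more between calves than most genes of their level. The biological coefficient of variation (BCV), edgeR's estimate of the spread between calves of 1 group once counting error is removed, was 0.360 for AGR2 and 0.325 for CLCA1. It was 0.286 for MUC13, 0.273 for MUC1 and 0.266 for TFF3, against a common value of 0.223 over all genes. Among the 1000 genes nearest in level to each, the 5 stood between the 92.8th percentile (MUC13) and the 96.7th percentile (AGR2) of BCV.

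**Figure D1:**
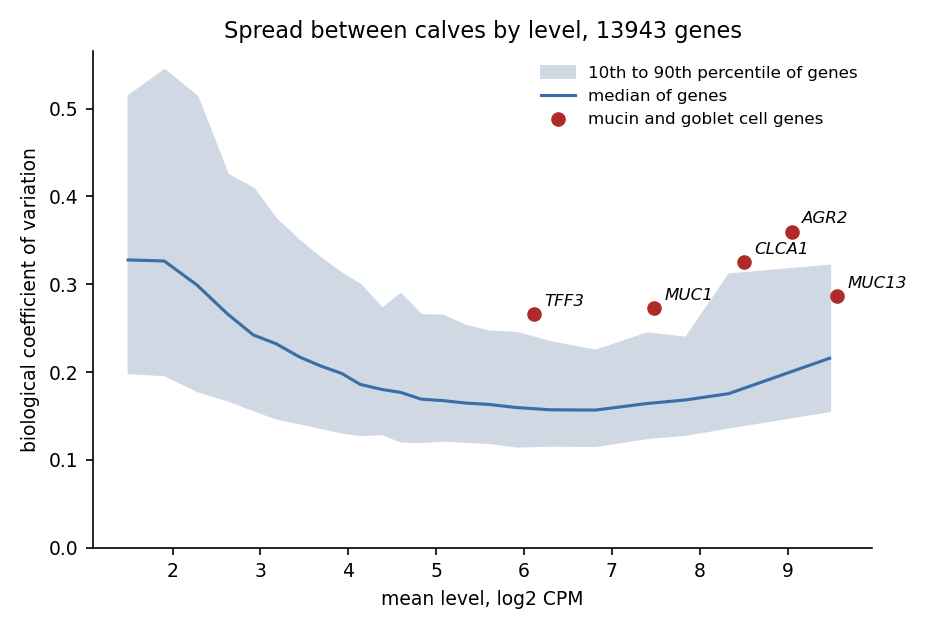
Biological coefficient of variation (vertical axis) against mean level in log2 CPM (horizontal axis). The band runs from the 10th to the 90th percentile of the 13943 tested genes in bins of level, the line is their median, and the red points are the 5 genes, which run from 0.266 (TFF3) to 0.360 (AGR2).

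The 1st question of the design was whether the hour of the first colostrum meal changed expression. In TRT12 against TRT0 all 5 genes had a positive log2 fold change, with a median of 0.31 beside -0.0039 over all 13943 genes tested, but none was called. The signs of MUC1 and MUC13 did not hold: MUC1 was -0.16 with the mean of the epithelial markers as a covariate, and in lane 2 alone MUC13 was -0.14 and MUC1 -0.033. A gene was called at a Benjamini-Hochberg adjusted p of 0.10 and a fold change of 1.2 in edgeR's quasi-likelihood test. By that rule 0% of all genes were called in any of the 3 treatment contrasts, while at an unadjusted p of 0.05 the shares were 3.14% in TRT6 vs. TRT0, 9.37% in TRT12 vs. TRT0 and 3.14% in TRT12 vs. TRT6. CLCA1 was the only one of the 5 under 0.05 unadjusted, and it was so against TRT0 for both of the later meals. Both contrasts share the same TRT0 calves and are not independent. Beside the model, the key differences were put to an exact permutation test over calves (two-sided, on mean log2 CPM after TMM scaling), whose p carries no adjustment for the 60 such tests over members and contrasts, of which 4 were under 0.05.

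CLCA1, the secreted protease, ranged from 107 to 421 CPM in TRT0 with a median of 298. It ranged from 185 to 549 CPM in TRT6 (median 409) and from 186 to 592 CPM in TRT12 (median 417). In each later-fed treatment 7 of 9 calves lay above the TRT0 median and 4 of 9 above every TRT0 calf, and the ranges overlapped. The fold change was 1.37 in TRT6 vs. TRT0 (log2 0.46, SE 0.22, adjusted p = 0.99998) and 1.46 in TRT12 vs. TRT0 (log2 0.54, SE 0.22, adjusted p = 0.460). The exact permutation p was 0.0794 and 0.0575. TRT12 and TRT6 did not separate (log2 0.09, 95% interval -0.37 to 0.54).

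The CLCA1 difference was not seen in every lane. In the 11 calves of lane 2 its log2 fold change was 0.61 in both TRT6 vs. TRT0 (SE 0.30) and TRT12 vs. TRT0 (SE 0.28). In the 11 calves of lane 1, which held only 2 TRT0 calves, it was -0.0030 and 0.015, with SEs of 0.42 and 0.50. Without replicate 8 of TRT12, the calf with the highest CLCA1, the TRT12 vs. TRT0 value was 0.44 (adjusted p = 0.682), no longer under 0.05 unadjusted. The TRT6 vs. TRT0 value ran from 0.35 to 0.56 as single calves were left out and was under 0.05 in 10 of 27 such fits.

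Epithelial markers moved in the same direction. In TRT12 vs. TRT0 all 9 had a positive log2 fold change (median 0.23), and VIL1 of the brush border (0.34), the claudin CLDN7 (0.31) and the cadherin CDH1 (0.23) were under 0.05 unadjusted, at adjusted p of 0.434, 0.434 and 0.506. Their summed level in TRT0 was 3006 ± 388 CPM (SD, n = 9), that in TRT6 3182 ± 352 and that in TRT12 3394 ± 574. With the mean of the epithelial markers as a covariate, CLCA1 stood at 0.33 in both contrasts against TRT0 (adjusted p = 0.999 for TRT6 and 0.956 for TRT12), and neither was under 0.05 unadjusted. The 7 absorptive colonocyte markers were all higher in TRT12 as well, led by the carbonic anhydrase CA1 (1.33, adjusted p = 0.410).

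TFF3, the trefoil peptide, ranged from 41.7 to 91.3 CPM in TRT0 (median 58.7), from 33.2 to 84.6 in TRT6 (median 67.0) and from 51.2 to 113 in TRT12 (median 69.8). Of the TRT12 calves 8 of 9 lay above the TRT0 median, and the ranges overlapped. Its log2 fold change was 0.31 in TRT12 vs. TRT0 (SE 0.18, adjusted p = 0.613) and 0.030 in TRT6 vs. TRT0. With the epithelial covariate the TRT12 vs. TRT0 value was 0.031.

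AGR2, the mucin-folding isomerase, ranged from 299 to 774 CPM in TRT0 (median 417), from 248 to 1130 in TRT6 (median 408) and from 273 to 911 in TRT12 (median 654). In TRT12, 8 of 9 calves lay above the medians of both other treatments, yet all 3 ranges overlapped. The log2 fold change was 0.36 in TRT12 vs. TRT0 (SE 0.26, adjusted p = 0.693) and 0.44 in TRT12 vs. TRT6 (SE 0.26, adjusted p = 0.9997). One calf weighed on the latter: without replicate 2 of TRT6, a heifer-born calf at 1130 CPM, it was 0.72 (adjusted p = 0.871). The exact permutation p of TRT12 vs. TRT6 was 0.0942 with all calves. That calf was singled out by its AGR2 value, so the fit without it is no test of the contrast. Lane 2 alone gave 0.77 for TRT12 vs. TRT0 (SE 0.28) and 0.98 for TRT12 vs. TRT6 (SE 0.34), and lane 1 gave 0.63 and 0.11 (SE 0.61 and 0.40).

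The transmembrane mucins had the smallest log2 fold changes in TRT12 vs. TRT0, 0.24 for MUC13 and 0.16 for MUC1. MUC13 ranged from 306 to 911 CPM in TRT0 (median 736), from 429 to 1102 in TRT6 (median 765) and from 491 to 1114 in TRT12 (median 854). MUC1 ranged from 93.0 to 284 CPM in TRT0, from 110 to 203 in TRT6 and from 78.4 to 244 in TRT12, with medians of 190, 188 and 190. The ranges of both mucins overlapped widely, and the MUC1 medians nearly coincided. The 95% interval of the log2 fold change in TRT12 vs. TRT0 was -0.15 to 0.63 for MUC13 and -0.23 to 0.56 for MUC1.

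**Figure D2:**
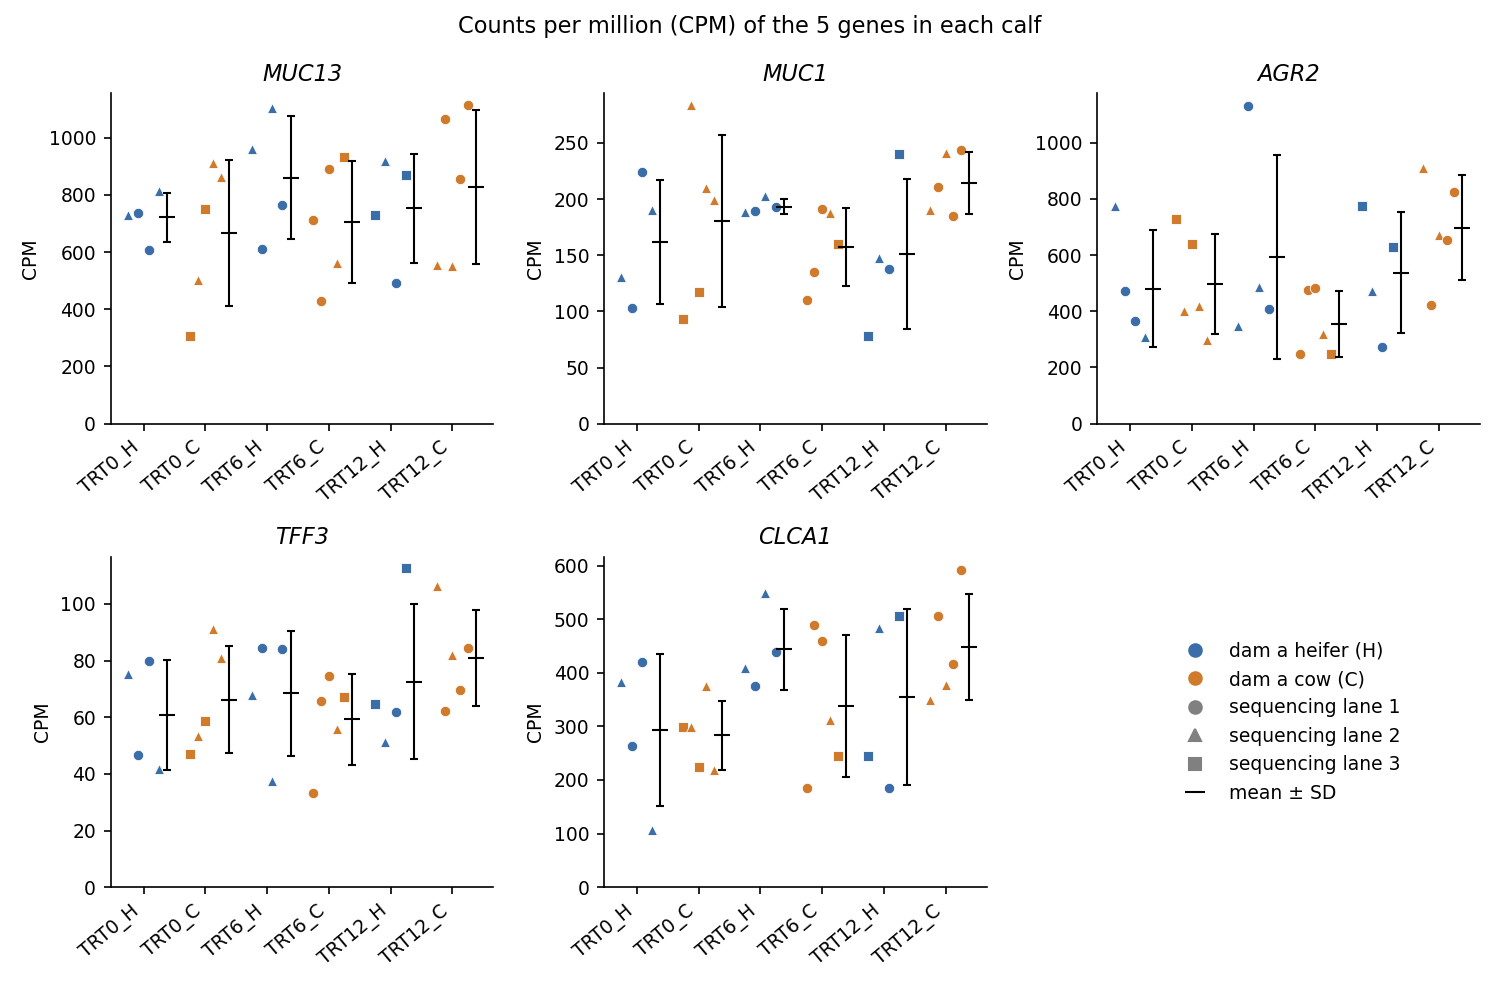
CPM of each gene in each calf (points), by the 6 groups of treatment and dam parity, with the mean and SD of each group in black. Color marks dam parity and shape marks the sequencing lane. The groups overlap for every gene, and 1 TRT6_H calf stands alone for AGR2 at 1130 CPM.

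The 2nd question was whether dam parity mattered. Over all treatments, C vs. H gave log2 fold changes from -0.13 (AGR2) to 0.058 (MUC1), with unadjusted p from 0.416 to 0.870, and no member was called (0% of all genes, 2.52% under 0.05 unadjusted). MUC13 averaged 778 ± 169 CPM in the 12 H calves and 733 ± 240 CPM in the 15 C calves. Its lanes disagreed, with C lower in lane 2 (log2 -0.51, SE 0.17) and not in lane 1 (0.26, SE 0.27).

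Among calves born to cows, all 5 estimates were higher in the 12 h group. The log2 fold changes were positive in both TRT12_C vs. TRT0_C (0.36 to 0.76) and TRT12_C vs. TRT6_C (0.30 to 0.995), which share the TRT12_C calves. None was called in either (0% of all genes in both), and the shares of all genes under 0.05 unadjusted were 9.87% and 6.71%. In TRT6_C vs. TRT0_C no member was under 0.05, where 1.95% of all genes were. Among calves born to heifers, TRT6_H vs. TRT0_H gave positive values for all 5 (0.20 to 0.62) and TRT12_H vs. TRT0_H values from -0.12 to 0.24. In TRT12_H vs. TRT6_H 4 of 5 were negative (median -0.25), the opposite sign to the cow-born calves. No member was under 0.05 in any of the 3 contrasts, in which 3.34%, 3.56% and 1.8% of all genes were.

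The log2 fold change farthest from 0 over the 13 contrasts was that of AGR2 in cow-born calves, TRT12_C vs. TRT6_C. The TRT6_C calves had 248, 248, 319, 476 and 485 CPM. The TRT12_C calves had 424, 654, 671, 823 and 911 CPM. In TRT12_C 4 of 5 calves lay above every TRT6_C calf, and the groups overlapped by 1 calf. The fold change was 1.99 (log2 0.995, SE 0.33), which ranked 80th of 13943 genes by unadjusted p, and the adjusted p was 0.738. The exact permutation p was 0.0159, where 5 calves against 5 can give no less than 0.00794. Leaving out any 1 calf kept the log2 value between 0.90 and 1.196. It was 1.12 with lane as a covariate (adjusted p = 0.343) and 1.03 with the epithelial covariate. Across calves AGR2 had a Pearson's r of only 0.13 with the latter, so that covariate could shift it little. With the mean of OLFM4 and TOP2A, markers of stem and cycling epithelium, r was 0.83. That mean was not used as a covariate, and the median log2 fold change of those markers here was 0.36. In lane 1, where 3 calves of each group lay, the TRT6_C calves had 248, 476 and 485 CPM and the TRT12_C calves 424, 654 and 823.

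In the same contrast MUC1 was 1.42-fold higher (log2 0.51, SE 0.25, adjusted p = 0.740), at 110, 135, 160, 188 and 192 CPM in TRT6_C against 185, 190, 211, 241 and 244 CPM in TRT12_C. Here 3 of 5 TRT12_C calves lay above every TRT6_C calf. The exact permutation p was 0.0238 for MUC1. TFF3 stood at log2 0.48, CLCA1 at 0.45 and MUC13 at 0.30, none of them under 0.05 unadjusted. With the epithelial covariate MUC1 was 0.16 (adjusted p = 0.99994), and with single calves left out it was under 0.05 in 10 of 27 fits.

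CLCA1 was 1.69-fold higher in TRT12_C than in TRT0_C (log2 0.76, SE 0.29, adjusted p = 0.444). The TRT0_C calves had 219, 223, 298, 300 and 376 CPM, and the TRT12_C calves 349, 378, 417, 505 and 592 CPM. Only 1 TRT12_C calf lay below the highest TRT0_C calf. After TMM scaling, the scale of the permutation test, the groups just failed to overlap (334 against 338 CPM). The exact permutation p was thus 0.00794, the smallest that 5 calves against 5 can give. The share of all genes whose groups failed to overlap was not counted. In the model 9.87% of all genes were under 0.05 unadjusted in this contrast. With each calf left out the log2 value ran from 0.61 to 0.85, and the lowest came without replicate 8 of TRT12 (adjusted p = 0.669). TRT0_C had no calf in lane 1, which held 3 of the 5 TRT12_C calves. With lane as a covariate the value was 0.63 (adjusted p = 0.417). All 9 epithelial markers had positive log2 fold changes here too (median 0.35, 3 of them under 0.05 unadjusted), and with the epithelial covariate CLCA1 was 0.53 (adjusted p = 0.989), no longer under 0.05.

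The AGR2 estimate by parity within TRT6 rested on 1 calf. The TRT6_H calves had 346, 408, 487 and 1130 CPM, against 248 to 485 CPM in TRT6_C, and the exact permutation p was 0.127. TRT6_C vs. TRT6_H was a 1.74-fold lower level (log2 -0.80, SE 0.34, adjusted p = 0.998), where 3.86% of all genes were under 0.05 unadjusted. Without the calf at 1130 CPM the value was -0.26 (adjusted p = 0.9995). MUC1 ran from 188 to 203 CPM in TRT6_H and from 110 to 192 CPM in TRT6_C (log2 -0.38, SE 0.26, adjusted p = 0.998). Its exact permutation p was 0.0159, while the model's unadjusted p was above 0.05. No member differed by parity within TRT0 or TRT12 at an unadjusted p of 0.05, where 2.52% and 2.68% of all genes did; the nearest was MUC1 in TRT12_C vs. TRT12_H (log2 0.52, adjusted p = 0.9998).

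The interaction of treatment and parity tests whether the treatment response itself differed between calves of heifers and of cows. Of all genes 1 was called (0.00717%) and 2.66% were under 0.05 unadjusted, and no member was either. The unadjusted p was 0.0555 for AGR2, 0.0687 for MUC1, 0.179 for CLCA1, 0.342 for MUC13 and 0.479 for TFF3. For AGR2 it was 0.329 without replicate 2 of TRT6 and 0.00801 with lane as a covariate (adjusted p = 0.895). Lane itself was tested in the same way: 2.41% of all genes were called and 15.4% were under 0.05 unadjusted, and no member was either, with unadjusted p from 0.138 for MUC1 to 0.972 for MUC13.

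**Figure D3:**
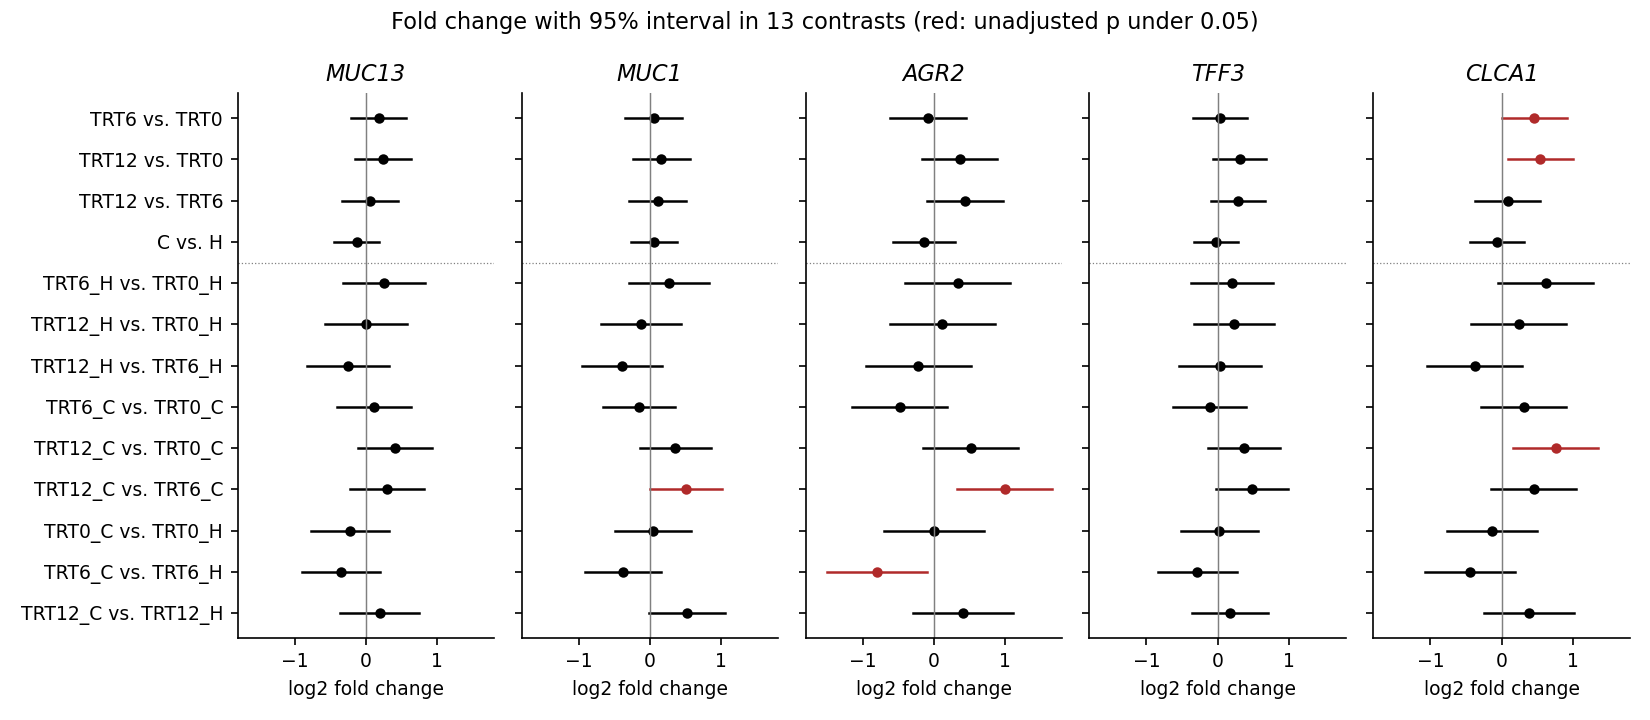
Log2 fold change (points) and 95% interval (lines) of each gene in the 13 contrasts, the 4 overall contrasts above the dotted line and the 9 contrasts within treatment or parity below. Red marks an unadjusted p under 0.05, which 6 values had, and the value farthest from 0 is AGR2 in TRT12_C vs. TRT6_C at 0.995.

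Across the calves the genes were only loosely tied to each other. Over the 10 pairs of members, Pearson's r of log2 CPM across 27 calves had a median of 0.34 and ran from -0.11 to 0.44. All calves enter each r whatever their treatment, and the points share library depth and tissue makeup. MUC1 and TFF3 gave the highest r, 0.44. The secretory genes came close, with r of 0.43 for AGR2 and TFF3, 0.44 for AGR2 and CLCA1, and 0.43 for TFF3 and CLCA1. Over all calves the transmembrane mucins did not follow AGR2, with r of -0.11 for MUC13 and -0.052 for MUC1. Within the lanes, r of MUC1 and TFF3 was 0.82 in lane 1 and 0.045 in lane 2, and r of AGR2 and TFF3 was 0.59 and 0.48 (n = 11 each). For AGR2 and CLCA1 the lanes gave 0.59 and 0.46, and for TFF3 and CLCA1 0.73 and 0.11. The lanes differed in sign for AGR2 with MUC1 (0.46 and -0.13) and with MUC13 (0.24 and -0.24).

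Few calves were high or low for the whole set. Replicate 8 of TRT12, born to a cow, was among the 9 highest calves for all 5 genes, and replicate 9 of TRT12, born to a heifer, for 4 of them. The latter also had the highest summed epithelial markers, 4460 CPM. Replicate 4 of TRT6, replicate 1 of TRT0 and replicate 4 of TRT12 were among the 9 lowest for 4 genes each.

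The 9 general epithelial markers tracked some of the genes and not others. With the mean of the 9 markers, r was 0.73 for MUC1, 0.67 for TFF3, 0.44 for CLCA1, 0.30 for MUC13 and 0.13 for AGR2. Spearman's rho was 0.71 for MUC1, 0.72 for TFF3, 0.46 for CLCA1, 0.29 for MUC13 and 0.070 for AGR2. Within lanes 1 and 2 (n = 11 each), r was 0.72 and 0.63 for MUC1 and 0.75 and 0.51 for TFF3. The lanes disagreed for CLCA1, at 0.71 and 0.028. For MUC13 they gave 0.082 and 0.019, and for AGR2 0.39 and 0.40. The mean of OLFM4 and TOP2A, markers of stem and cycling epithelium, ordered the genes differently. Its r was 0.83 for AGR2, 0.46 for both TFF3 and CLCA1, -0.037 for MUC1 and -0.050 for MUC13. Smooth muscle markers had r between -0.07 and 0.10 with all 5, and fibroblast markers between -0.18 and 0.20.

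AGR2 had the closest partners. The 5 genes with the highest r to it, of 13942, held 4 with a symbol: HSP90B1, the chaperone GRP94 (r = 0.93), the disulfide isomerase PDIA3 (0.89), the calcium-binding NUCB2 (0.89) and the crypt glycoprotein OLFM4 (0.87). All 4 held without the 2 calves farthest from the median (0.83 to 0.90) and within lanes 1 and 2 (0.85 to 0.95). HSP90B1 ran from 389 to 1159 CPM over the calves, and both it and AGR2 were highest in replicate 2 of TRT6. In TRT12_C vs. TRT6_C their log2 fold changes were 0.78 for HSP90B1, 0.63 for PDIA3, 0.75 for NUCB2 and 0.58 for OLFM4, which adds nothing to AGR2, since the genes were picked for following it in the same calves.

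MUC1 came next. Of its 5 likest genes 3 had a symbol: TMEM8A (r = 0.88), the plakoglobin gene JUP (0.85) and KIAA1522 (0.82). Without the 2 farthest calves these were 0.80, 0.80 and 0.68, and JUP gave 0.92 in lane 1 and 0.48 in lane 2.

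The other members had looser partners. TFF3 was led by 4 genes with no symbol here and CIST1 (r = 0.74), and the highest r was 0.79. CLCA1 was led by 3 genes with no symbol, ISG20L2 (0.66) and the chloride-loading cotransporter SLC12A2 (0.64), and the highest r was 0.73. MUC13 had the weakest partners, with a highest r of 0.69 and ATP10B, a lipid flippase, at 0.65. The share of genes with r above 0.5 was 5.50% for MUC1, 5.47% for AGR2 and 4.55% for TFF3, but 0.925% for CLCA1 and 0.459% for MUC13. Each list of partners was the top of 13942 genes. The highest r and the share above 0.5 that unrelated genes would give were not tested. ATP10B is thus not shown to be tied to MUC13, nor are ISG20L2 and SLC12A2 to CLCA1.

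**Figure D4:**
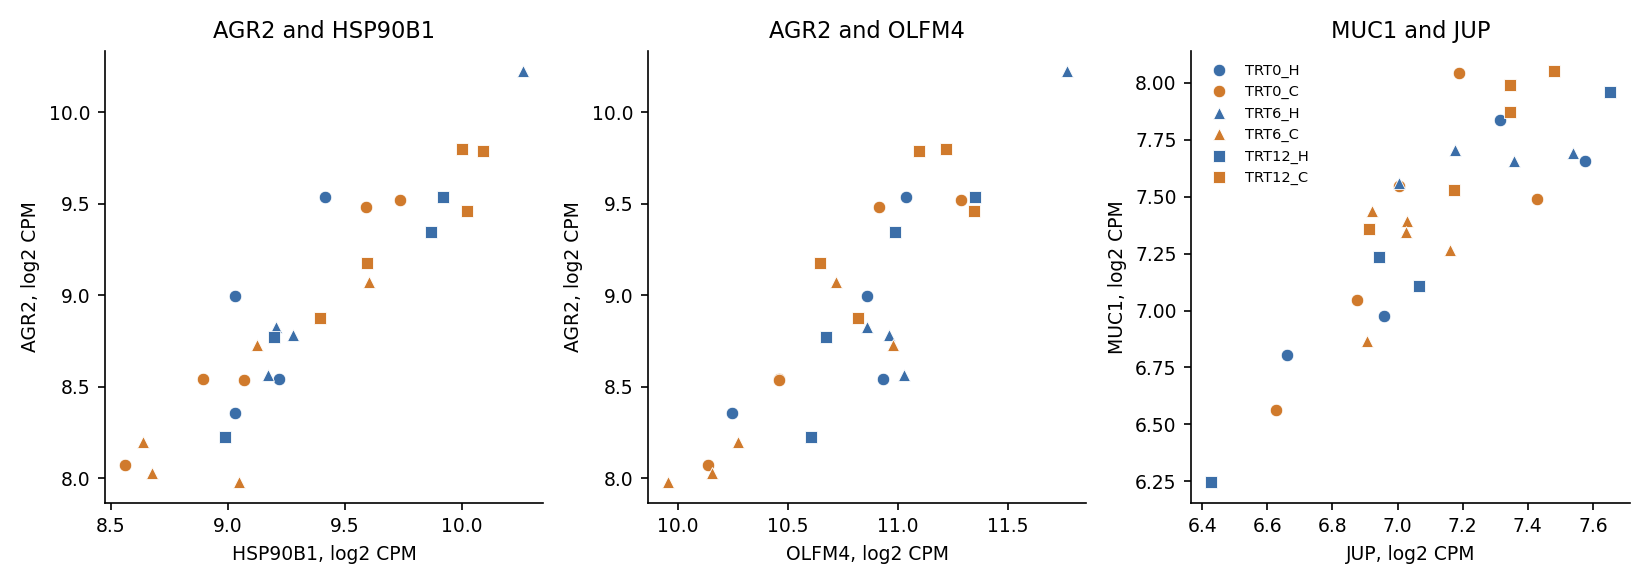
Level of AGR2 against HSP90B1 (left) and OLFM4 (middle), and of MUC1 against JUP (right), in log2 CPM, with 1 point per calf. Shape marks treatment and color marks dam parity. The points fall along a line, with r of 0.93, 0.87 and 0.85.

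Other genes of the mucus pathway were taken from lists of related function. Symbols were found for 4 of 14 other goblet cell and mucus proteins (TFF2, CLCA4, SYTL2 and ERN2), 3 of 14 regulators of the secretory lineage (KLF4, XBP1 and NOTCH1), 3 of 16 enzymes of mucin O-glycosylation (GALNT5, GALNT12 and GCNT3) and 0 of 13 other mucins. Names came mainly from a list of abundant genes but covered only 4046 of 24616 genes. A gene without a name here is therefore not shown to be low. None of the 10 was called in any of the 3 overall treatment contrasts, and 2 were under 0.05 unadjusted in TRT12 vs. TRT0 (9.37% of all genes), both with positive log2 fold changes.

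Those were CLCA4, a relative of CLCA1, and GCNT3, the enzyme that makes branched core O-glycans. CLCA4 averaged 485 ± 228 CPM in TRT0, 635 ± 232 in TRT6 and 764 ± 261 in TRT12 (log2 0.64 in TRT12 vs. TRT0, SE 0.26, adjusted p = 0.460). Its r with CLCA1 was 0.20, and reads assigned to more than 1 gene had not been counted by the authors. GCNT3 averaged 113 ± 10.6 CPM in TRT0 and 138 ± 32.4 in TRT12 (log2 0.31, adjusted p = 0.491), and its log2 value in TRT12_C vs. TRT6_C was 0.48 (adjusted p = 0.738). Across calves GCNT3 tracked AGR2 (r = 0.63) and CLCA1 (r = 0.62).

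The other list genes were not under 0.05 unadjusted in any of the 3 overall treatment contrasts. Within parity KLF4, which acts in goblet cell differentiation, was under 0.05 in TRT12_C vs. TRT0_C (log2 0.40, SE 0.18, adjusted p = 0.478). TFF2, a trefoil peptide better known from gastric mucus, averaged 966 ± 158, 957 ± 301 and 919 ± 204 CPM in TRT0, TRT6 and TRT12. XBP1, a regulator of the secretory apparatus, had r of 0.66 with TFF3 and 0.60 with AGR2, and KLF4 0.65 with MUC1 and 0.62 with TFF3. ERN2, the stress sensor IRE1 beta of mucus-secreting epithelium, ran against AGR2 (r = -0.59, and -0.52 and -0.42 in lanes 1 and 2). So did SYTL2 (r = -0.62, and -0.71 and -0.52 in lanes 1 and 2). The other goblet cell and mucus proteins of the list, CLCA4 and TFF2, had positive r with AGR2 (0.50 and 0.38).

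**Figure D5:**
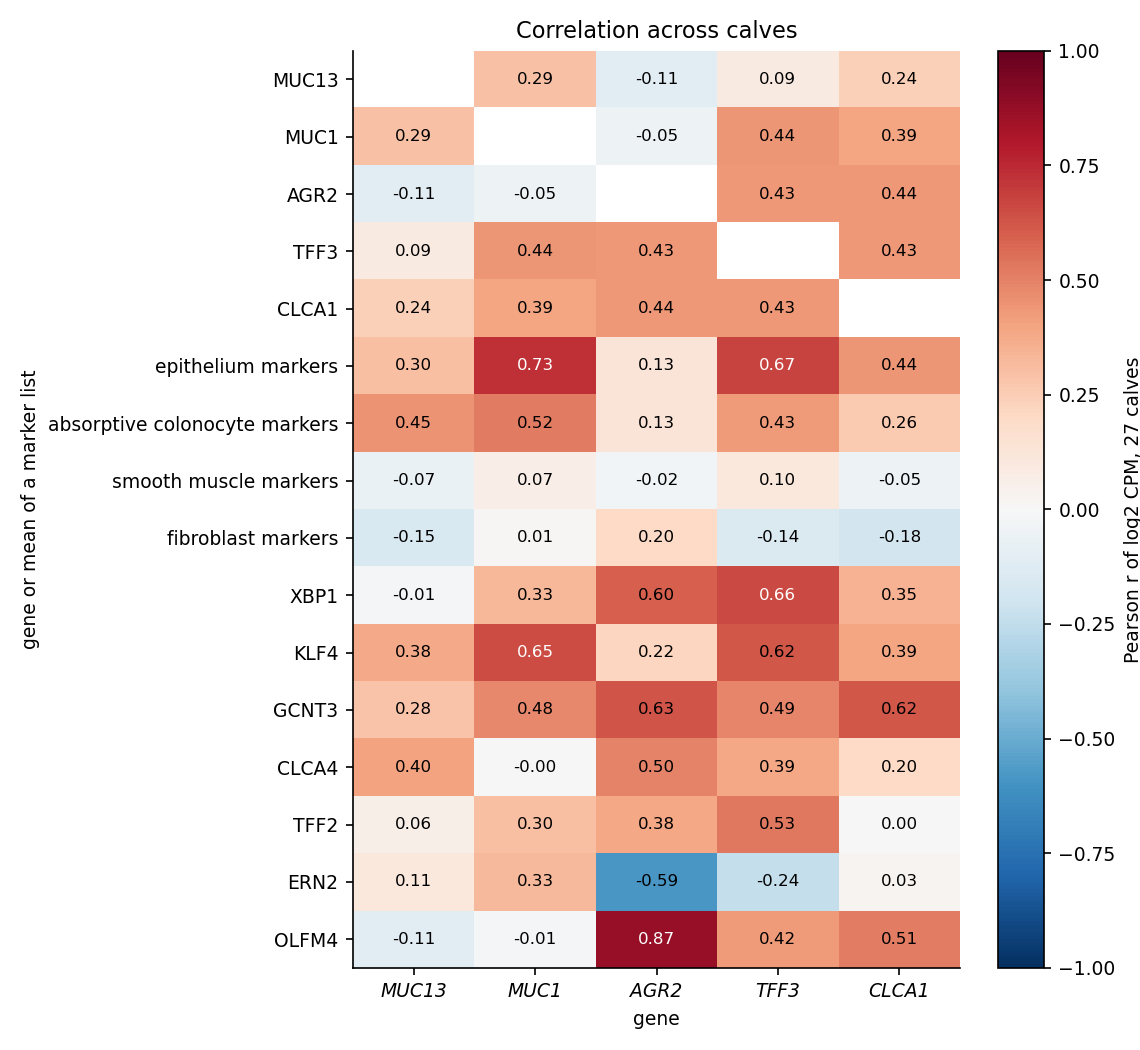
Pearson's r of log2 CPM across 27 calves between each of the 5 genes (columns) and the other members, the means of 4 marker lists and 7 named genes (rows). Red is positive and blue negative. MUC1 and TFF3 are reddest against the epithelial markers (0.73 and 0.67), and AGR2 against OLFM4 (0.87).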

How the data were processed

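Colon RNA of 27 calves had been sequenced with a TruSeq RNA v2 kit in pairs. Per the study's methods and the submitters' processing notes, reads were aligned to UMD 3.1 with TopHat 2.1.1, sorted with SAMtools 1.4 and counted per Ensembl gene with HTSeq, whose version and strand setting are not given in the sources used here. The authors deposited whole-number counts per gene, not normalized. Treatment came from the sample labels. Lane came from the run names, where each run and lane was numbered as 1 lane, and lane 3 had a run number of its own. Dam parity came from the study's sample sheet by calf number, since the labels do not give it. Replicate numbers follow the order of deposit and pair nothing. Calves were separate animals.

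Symbols came from the study's supplementary gene lists, which name 4046 of the 24616 genes and mainly abundant ones. The genes and lists were chosen with earlier results of these data known. A gene was tested where 5 of the 9 calves of each treatment, or more, reached a CPM of 1, which kept 13943 genes. Tests ran in R 4.3.3 with edgeR 4.0.16 by its quasi-likelihood method after TMM scaling (factors 0.886 to 1.15). The 4 overall contrasts came from an additive fit of treatment and parity, the 9 others and the interaction from 6 group means, and lane was added to the additive fit. Adjusted p covers all genes tested. Named genes were the 5 members, list genes with an unadjusted p under 0.05 in an overall contrast (up to 3 a list) or the highest mean CPM, and the 5 genes with the highest r to each member. Further list genes, such as KLF4, ERN2 and SYTL2, are named outside this rule. Alternatives were the likelihood ratio test, DESeq2 1.42.0, other scalings, other filters, lane or epithelial level as covariates, fewer calves and a stricter threshold. Fits in single lanes, r without 2 calves or by lane, and exact permutation tests over calves were added after seeing the data. Scripts were tested on simulated data. CPM carries counting error of its own, set by the depth of the deposited counts and largest for TFF3. No sequences are printed because no sequence table was used here.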

Additional observations from a re-analysis of the deposited data

Results flagged for a closer look

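AGR2 in replicate 2 of TRT6, a calf born to a heifer and sequenced in lane 1, stood at 1130 CPM. The next highest of the 9 TRT6 calves had 487 CPM, a gap that exceeded Dixon's 95% critical value for the group. Chance flags about 1 in 20 groups, and this was 1 flag in 45 groups tested, against 2.25 by that rate. HSP90B1 and OLFM4 were also at their highest in this calf, at 1159 and 3294 CPM.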

How the results depend on the processing

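No member was called under any of 530 alternative counts of members called. Over all genes, DESeq2's Wald test called 51 genes in TRT12 vs. TRT0, where edgeR called 0, and none was a member. Of 24 log2 fold changes followed, 907 alternative values gave 37 changes of sign, each of a value between -0.13 and 0.16, and the lowest adjusted p was 0.138, for CLCA1 in TRT12 vs. TRT0 with DESeq2. Besides leaving out calves, 7 alternatives reversed a sign, namely the epithelial covariate for MUC1 in TRT6 vs. TRT0 (-0.072), TRT12 vs. TRT0 (-0.16) and TRT12 vs. TRT6 (-0.092) and for TFF3 in TRT6 vs. TRT0 (-0.13) and C vs. H (0.021), and library totals without TMM for TFF3 in TRT6 vs. TRT0 (-0.015) and C vs. H (0.035). The cause was not tested.

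Leaving out each calf in turn gave -0.024 to 0.16 for MUC1, -0.37 to 0.022 for AGR2 and -0.040 to 0.12 for TFF3 in TRT6 vs. TRT0, and -0.045 to 0.13 for MUC13 and -0.017 to 0.19 for CLCA1 in TRT12 vs. TRT6. In C vs. H it gave -0.030 to 0.12 for MUC1, -0.22 to 0.067 for AGR2, -0.087 to 0.053 for TFF3 and -0.15 to 0.0053 for CLCA1. CLCA1 in TRT12 vs. TRT0 ran from 0.44 to 0.65 and was under 0.05 unadjusted in 26 of 27, against 10 of 27 for CLCA1 in TRT6 vs. TRT0 and for MUC1 in TRT12_C vs. TRT6_C.

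Lane 1 alone turned the sign of MUC13 (-0.16), AGR2 (0.52) and CLCA1 (-0.0030) in TRT6 vs. TRT0, and of MUC13 (0.26), MUC1 (-0.11) and CLCA1 (0.34) in C vs. H. Lane 2 alone turned TFF3 in TRT6 vs. TRT0 (-0.17), MUC13 (-0.14) and MUC1 (-0.033) in TRT12 vs. TRT0, MUC13 (-0.21), MUC1 (-0.12) and CLCA1 (-0.0014) in TRT12 vs. TRT6, and TFF3 in C vs. H (0.34). These fits were chosen after seeing the data. Other scales moved no correlation among members by more than its standard error, no group mean CPM by more than its SD and no spread percentile by more than 5 points. No paired analysis was possible because the replicate numbers only follow the order of deposit.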

Other observations

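Fibroblast markers, which the report uses only as a check of tissue makeup, had negative log2 fold changes for all 6 genes in TRT6 vs. TRT0 (median -0.29) and in TRT12 vs. TRT0 (median -0.17). None was called. The matrix proteoglycans DCN (-0.40) and LUM (-0.29) were under 0.05 unadjusted in the former, both at an adjusted p of 0.99998 in edgeR's test. In TRT12_H vs. TRT0_H 5 of 6 were under 0.05 unadjusted (median -0.47), and in TRT12_C vs. TRT6_C all 6 were positive (median 0.36). The summed level of these markers also differed by lane, at 9590 ± 2488 CPM in the 11 calves of lane 1 and 13170 ± 2364 CPM in the 11 of lane 2, and treatments were spread unevenly over the lanes. With lane as the tested term, 1 of the 6 markers was called and 2 were under 0.05 unadjusted. Of all genes 2.41% were called and 15.4% were under 0.05 in that test. The part of lane in the treatment values of these markers was not tested.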
